A study of Mus musculus with 130 samples.

Results

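The livers of 20 mouse strains with the most Bmp6 RNA were compared with those of the 20 strains with the least, in a panel of inbred strains that had all eaten a diet heavily loaded with iron. The members were chosen by their Bmp6 level alone: strains were ranked on the TPM (transcripts per 1000000 transcripts) of Bmp6 (ENSMUSG00000039004, chromosome 13, 38345107 to 38500302 of GRCm38), and the 73 strains between the groups were set aside. The difference in Bmp6 between the groups is therefore a description and carries no test. Every mouse of both groups was a male, given chow for 4 weeks and then 2% carbonyl iron (20000 ppm) for 6 weeks, and each strain was represented by 1 mouse. The age of the mice is not given in the sources used here. The strains are inbred lines and recombinant inbred lines, the latter made by crossing a pair of inbred parents and inbreeding the offspring, so a group mixes many genotypes and contains relatives. The whole series holds 130 liver libraries, of which all but 15 are from this panel. Those 15 are from C57BL/6J mice on 5 diets with 3 mice each. The diets were chow, 50 ppm iron, 500 ppm iron, 2% carbonyl iron, and 2% carbonyl iron with cellulose as fiber. The weeks these mice spent on their diets are not given in the labels used here, so they may differ from those of the panel. One library of BXD65/RwwJ and the second of 2 mice of 129X1/SvJ did not enter the ranking. With 1 mouse per strain, strain and individual mouse cannot be told apart, and a p-value here measures a difference against the spread among single mice of partly related strains.

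BMP6 is a secreted ligand of the bone morphogenetic protein family. In the liver it is made mainly by the endothelial cells that line the sinusoids, rises with iron stores, and acts on neighbouring hepatocytes through BMP receptors and the co-receptor hemojuvelin. SMAD transcription factors then switch on Hamp, the gene of hepcidin, the hormone that makes cells degrade the iron exporter ferroportin and so lowers iron entry into the blood. The same signal induces Id1, Smad6, Smad7 and Atoh8, several of which damp the pathway again.

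SMAD proteins bind GC-rich elements, of which the palindrome GGCGCC is one commonly searched form. The stretches of 120 bases just before the annotated starts of Hamp (chr7:30944033-30944152, minus strand) and Smad9 (chr3:54755462-54755581, plus strand) are shown because both belong to the BMP response read below and both hold that element, printed in capitals. They are the RefSeq reference sequence of GRCm38.p6, read 5′ to 3′ in the direction of the gene, and not the sequence of any strain studied.
Hamp: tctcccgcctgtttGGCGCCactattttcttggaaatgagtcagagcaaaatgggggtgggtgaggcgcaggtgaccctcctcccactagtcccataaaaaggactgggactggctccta
Smad9: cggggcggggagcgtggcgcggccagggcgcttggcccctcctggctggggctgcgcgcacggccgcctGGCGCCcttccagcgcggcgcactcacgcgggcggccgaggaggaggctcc
The element was searched in the 250 bases before each start, and, being its own reverse complement, it reads the same on both strands. It was present in 3149 of 32851 mouse promoter windows, or 9.59%. Of 11 BMP/SMAD target genes listed for this study, 8 matched a window and 4 held the element, against 1 of 10 matched sinusoidal endothelial genes and 0 of 9 matched Kupffer cell genes. A match is a run of letters and not a measured binding site.

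Bmp6 in the 20 high strains ran from 10.6 TPM in SJL/J and LG/J through a median of 12.02 to 16.7 TPM in BUB/BnJ. In the 20 low strains it ran from 2.03 TPM in BXD28/TyJ through a median of 4.08 to 4.93 TPM in SEA/GnJ. There was no gap at the borders, as the ranked plot shows. The last strain inside the high group, SJL/J, had 10.6037 TPM and the first outside it, BXD48a/RwwJ, had 10.6021. The last inside the low group, SEA/GnJ, had 4.93 TPM and the first outside it, BXD16/TyJ, had 4.997. After BUB/BnJ the highest were BXA4/PgnJ (14.9), C57BL/6J (13.8) and C58/J (13.6 TPM), while PL/J (2.09) and CE/J (2.44 TPM) stood next to the lowest. The counts behind these levels were 315 to 571 reads of Bmp6 per high library and 63.7 to 283 per low library.

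**Figure D1:**
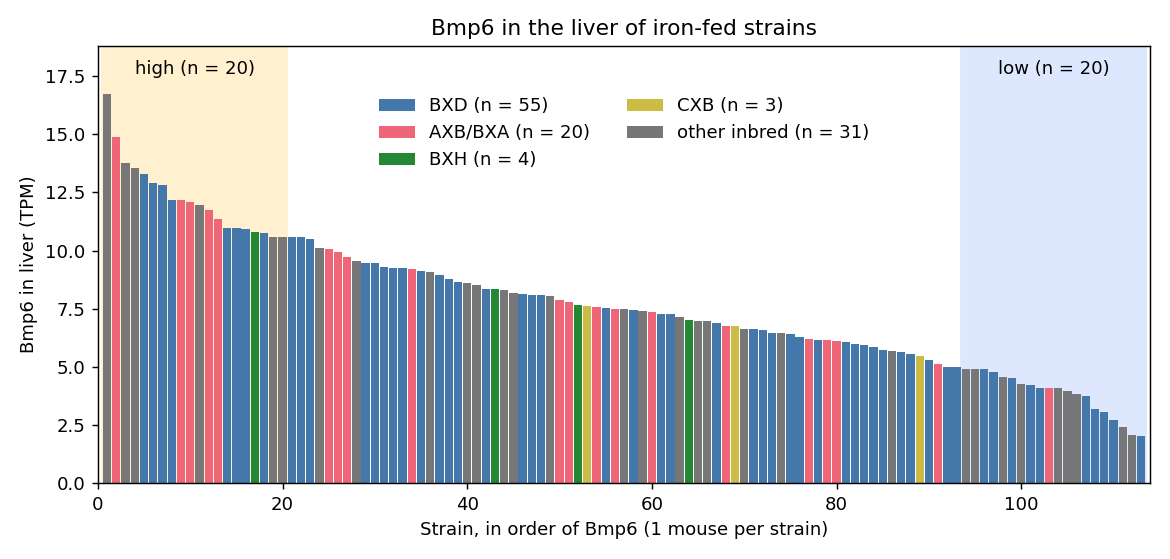
Bmp6 in the liver of each ranked iron-fed strain (y axis, TPM; x axis, strains from highest to lowest), with bars coloured by strain family and the groups of 20 shaded. Levels fall from 16.7 to 2.03 TPM with no step at either border of the groups.

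Every large family reached both ends of the ranking. Of 55 BXD strains, made from C57BL/6J and DBA/2J, 8 were high and 10 low. Of 20 AXB/BXA strains, made from C57BL/6J and A/J, 5 were high and 1 was low, and of 31 other inbred strains 6 were high and 9 low. The 4 BXH strains gave 1 high member and the 3 CXB strains none in either group. The founders of the BXD set lay far apart, C57BL/6J at rank 3 with 13.8 TPM and DBA/2J in the low group with 4.07, whereas A/J (6.98 TPM) and C3H/HeJ (7.15 TPM) were in the middle. Among BXD strains, 5 high and 2 low members carried the stock code RwwJ, and 3 high and 8 low members the code TyJ.

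Close relatives could fall into different groups. BALB/cJ and BALB/cByJ were both low, at 3.83 and 4.57 TPM. AXB19/PgnJ and AXB19a/PgnJ were both high, at 12.2 and 11.4 TPM, yet AXB19b/PgnJ was low at 4.08. How far 1 mouse stands for its strain can be read from a few repeats. The 2 panel mice of 129X1/SvJ had 8.53 and 7.90 TPM. The panel mouse of C57BL/6J had 13.8 TPM, above all 6 C57BL/6J mice of the diet study that ate 2% iron, with 7.51, 9.73 and 8.93 TPM on the plain form and 7.55, 6.73 and 11.65 TPM with cellulose. Those tables were normalized separately, so this is a rough comparison. On 50 ppm iron the C57BL/6J mice had 1.082, 2.56 and 2.18 TPM.

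Outside Bmp6, 2071 of 13085 genes tested (15.8%) differed between the groups at an adjusted p under 0.05 (edgeR's quasi-likelihood test, Benjamini-Hochberg adjustment over all genes), a threshold that "called" refers to below. Of these, 1240 (9.48%) were higher and 831 (6.35%) lower in high Bmp6 strains, and most differences were small: 73 called genes were more than 2-fold higher and 26 more than 2-fold lower. In no gene but Bmp6 did the 2 groups of 20 strains stay clear of each other. The split depended on the scale. The gene listed as Klf10 took a median of 24.6% of all TPM in high and 28.5% in low strains, with ranges of 19.4 to 34.3% and 18.7 to 34.3%. Whether these reads come from Klf10 RNA was not tested, nor was their part in the TPM values below. With limma on log2(TPM + 1), 3131 genes were higher and 46 lower, and the median of all genes moved to 0.13 on the log2 scale from -0.02 in the count test. With each library centred on its median gene, a setting added after seeing the data, the split was 745 and 874. Ranking on CPM kept 13 of 20 high and 18 of 20 low strains, so 7 high strains changed, and called 1308 genes higher and 847 lower. Ranking again on TPM without Klf10, also added after seeing the data, kept 16 of 20 high and 18 of 20 low strains and called 1195 genes higher and 551 lower. Library totals differed too, with a median of 13.5 M counts in high strains (10.4 to 14.9 M) and 11.4 M in low strains (9.86 to 20.6 M), where M is 1000000 counts. That difference of 2.12 M in the median had a two-sided permutation p of 0.00178. Thinning all libraries to the lowest total left 1187 genes higher and 769 lower.

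The clearest shared feature of the high strains was more RNA of sinusoidal endothelial cells, the cells that make Bmp6. Of 14 listed markers, all tested, 13 were called higher and 0 lower, against 9.48% of all genes called higher, and the median log2 difference of the list was 0.85 against -0.02 for all genes. Their summed level was 552 to 1034 CPM (counts per 1000000 counts of the library), with a median of 860, in high strains and 314 to 734 CPM, with a median of 463, in low strains. The sums of 14 high strains exceeded those of every low strain, and 16 low strains lay below every high strain. In bulk liver RNA, more cells of a type and more RNA per cell cannot be told apart, and because Bmp6 is itself an endothelial transcript, selection on its level and the amount of endothelial RNA cannot be told apart either. Relative to that sum, Bmp6 was 2.77 to 5.18 per 100 (median 3.99) in high strains and 1.57 to 3.94 (median 2.86) in low strains, a description that uses the selected gene.

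Dnase1l3, which encodes a secreted DNase of these cells, ran from 47.9 through 74.5 to 98.5 CPM (lowest, median, highest) in high strains and from 12.1 through 40.8 to 57.2 CPM in low strains. Its 18 highest high strains lay above every low strain, and only BXD8/TyJ and 1 other high strain reached into the low range. The difference was 0.89 on the log2 scale (SE 0.12, edgeR adjusted p 9.37e-07). Oit3, a secreted zona pellucida domain protein used as a sinusoidal marker, ran from 25.04 through 33.9 to 48.4 CPM in high strains and from 7.77 through 15.7 to 27.6 CPM in low strains, and 16 high strains lay above every low one (log2 difference 1.03, SE 0.11, edgeR adjusted p 4.69e-08). Kdr, the main VEGF receptor, ran from 56.8 through 85.95 to 124 CPM against 21.6 through 43.03 to 80.5 CPM (0.99, SE 0.13, edgeR adjusted p 1.06e-06). The highest low strain for all 3 genes was BALB/cByJ, and PL/J was the lowest for Dnase1l3 and Oit3.

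The scavenger receptor Stab1 was higher by 0.77, and the semaphorin receptor Plxnc1 by 1.06 on the log2 scale. Stab1 did not pass in the centred TPM fit, at an adjusted p of 0.252. The mannose receptor Mrc1, higher by 0.98, and the Fc receptor Fcgr2b, higher by 0.81, are also found on macrophages. Clec4g, Gpr182 and the lymphatic and sinusoidal VEGF receptor Flt4 were higher by 0.58, 0.82 and 0.87. Stab2, the hyaluronan receptor, spread widely inside both groups, from 15.2 CPM in BXD8/TyJ to 197 CPM in C58/J among high strains and from 7.70 CPM in BXD18/TyJ to 107.2 CPM in DBA/2J among low strains. Its difference of 0.88 (SE 0.28) passed with an edgeR adjusted p of 0.0284. Ehd3 and Il1a, at 0.48 and 0.46, passed near the threshold, with edgeR adjusted p-values of 0.0464 and 0.0432. Ehd3 no longer passed with strain family in the model (0.108). Lyve1, a hyaluronan receptor shared with lymphatic vessels, was the 1 listed gene not called, at 0.44 (SE 0.26, edgeR adjusted p 0.252).

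Endothelial genes that are not special to sinusoids followed. Of 14 general and central-vein endothelial genes, 9 were called higher and 0 lower, where 9.48% of all genes were called higher. The list's median log2 difference was 0.68. Cdh5, the adhesion molecule of endothelial junctions, ran from 38.3 through 55.4 to 82.01 CPM in high and from 19.1 through 27.5 to 49.4 CPM in low strains (1.07, SE 0.10, edgeR adjusted p 4.58e-09). The receptor phosphatase Ptprb and the angiopoietin receptor Tek were higher by 0.96 and 0.89, and Vwf, which carries clotting factor VIII, by 0.96. Pecam1, present in most endothelium, differed by 0.13 (SE 0.14) and was not called. The Wnt signals of central-vein endothelium were not called: Wnt2 differed by 0.56 (SE 0.25), Rspo3 by 0.32 (SE 0.13) and Wnt9b by -0.12 (SE 0.29).

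**Figure D2:**
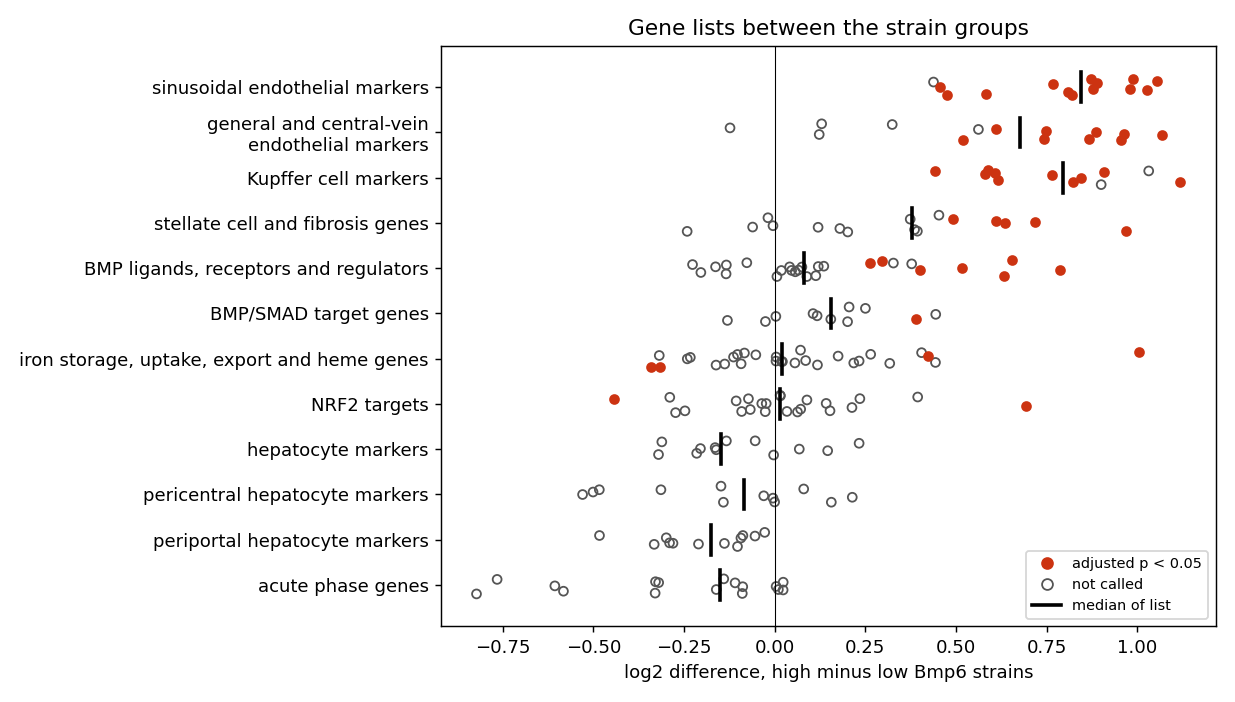
Log2 difference between high and low Bmp6 strains (x axis, high minus low, 20 strains each) for the tested genes of 12 lists (rows), filled where the adjusted p was under 0.05, with a bar at each list's median. Of 14 sinusoidal markers 13 are filled and lie to the right of 0, while hepatocyte, zonation and acute phase lists hold no filled point.

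Kupffer cells, the resident macrophages of the sinusoids that recycle iron from red cells, showed the same direction. Of 12 markers, 10 were called higher and 0 lower, with a median log2 difference of 0.79. Their summed level was 431.5 to 1233 CPM (median 749) in high and 285 to 1129 CPM (median 448.1) in low strains, and the low strain at 1129 CPM was KK/HlJ. Here the groups overlapped far more than for endothelial genes, since 3 high strains lay above every low strain. Adgre1, which encodes the F4/80 antigen, ran from 12.04 through 27.9 to 44.4 CPM against 5.32 through 11.4 to 29.4 CPM (1.12, SE 0.18, edgeR adjusted p 1.79e-05). The hemoglobin scavenger receptor Cd163 was higher by 0.91, the receptor for macrophage growth factor Csf1r by 0.84, and the lectin Clec4f, restricted to Kupffer cells in mouse liver, by 0.59. Cd5l and Timd4 were higher by 0.76 and 0.82, Vsig4 by 0.58 and the complement genes C1qa, C1qb and C1qc by 0.44, 0.61 and 0.62. C1qa lost its call in 13 of 27 alternatives (adjusted p up to 0.42), against 1 of 27 for C1qb and for C1qc. Marco and Folr2 had large but variable differences, 0.90 (SE 0.36) and 1.03 (SE 0.41), and were not called. Of 12 genes of recruited and lipid-associated macrophages, Cd68, at 0.53, was the 1 called, near the 9.48% of all genes called higher. The median of that list was 0.09.

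Of 16 tested genes of stellate cells and fibrosis, 5 were called higher and 0 lower, with a median of 0.38. These were the collagens Col4a1 (0.64) and Col6a1 (0.61), the crosslinking enzyme Loxl2 (0.97), the fibrogenic cytokine Tgfb1 (0.72) and Lrat (0.49), which stores vitamin A in stellate cells. The fibrillar collagen Col1a1, the main component of scars, differed by -0.02 (SE 0.29, edgeR adjusted p 0.974). The 5 tested neutrophil genes had a median log2 difference of 0.98, all 5 were positive and 1, Csf3r, was called higher. With strain family in the model 2 were, where 1503 of all 13085 genes were called higher. The summed level of all 11 listed neutrophil genes, tested or not, was low, with medians of 13.4 CPM in high and 9.35 CPM in low strains. It reached 134 and 61.6 CPM. The 8 tested erythroid genes had a median of 0.64, with 6 positive and 0 called. The sums of the 9 listed erythroid genes found in the data ran from 12.3 through 175 to 1912 CPM in high strains. In low strains they ran from 11.7 through 169 to 900 CPM. The part of neutrophils and red cells in the other differences was not tested beyond the following. Leaving out LG/J, BXD55/RwwJ and BXD8/TyJ, the high strains with the most neutrophil RNA, kept 12 sinusoidal and 9 Kupffer markers called. Of 5 tested lymphocyte genes 1, Cd79b (0.71), was called, where 9.48% of all genes were called higher.

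Hepatocyte lists gave no calls. Of 12 hepatocyte markers, 0 were called in either direction (median -0.15), and their sum spanned 118600 to 184150 CPM in high and 97377 to 192480 CPM in low strains. The 12 pericentral and 12 periportal markers, which report liver zonation, gave 0 calls each, with medians of -0.09 and -0.17. With strain family in the model, 2 pericentral, 1 periportal and 2 hepatocyte markers were called lower. So was 1 gene each of the cholesterol synthesis, fatty acid oxidation, female-biased and male-biased lists. In that fit 1217 of all 13085 genes tested were called lower and 1503 higher. Acute phase genes (16), cholesterol synthesis (23), fatty acid synthesis (14) and fatty acid oxidation genes (17) also gave 0 calls. Female-biased (11 tested) and male-biased liver genes (13 tested) and cholangiocyte genes (5 tested) gave 0 calls. Of 13 cell cycle genes 1 was called, Tyms, lower by 0.28, and of 15 core clock genes 1 was called, Clock, higher by 0.34. Both counts are near the shares of all genes, 6.35% called lower and 9.48% called higher. Tyms lost its call in 10 and Clock in 12 of 27 alternatives. With strain family in the model, 0 core clock genes were called higher and 1 lower. Exocrine pancreas genes summed to 213 CPM in the low strain BALB/cJ and to at most 10.96 CPM in any high strain.

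In the BMP pathway, genes were taken by role. Of 26 tested ligands, receptors and regulators, Bmp6 not among them, 7 were called higher and 0 lower, with a median of 0.08, where 9.48% of all genes were called higher. Bmp2, a second BMP ligand of sinusoidal endothelium that also controls hepcidin, ran from 19.6 through 32.8 to 40.2 CPM in high and from 9.59 through 18.3 to 35.9 CPM in low strains (0.79, SE 0.12, edgeR adjusted p 1.80e-05). The high strain BXD8/TyJ had the lowest level of its group, and BALB/cJ the highest of the low group. Gdf2 (BMP9) and Bmp10, circulating ligands with endothelial receptors, were higher by 0.40 (SE 0.12) and 0.52 (SE 0.13), while Bmp5, at 0.38 (SE 0.14, edgeR adjusted p 0.058), was not called. Among receptors, endothelial Acvrl1 and its partner Eng were higher by 0.66 and 0.63, and the type 2 receptor Bmpr2 by 0.30. The common mediator Smad4 was higher by 0.26.

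Of the listed genes that can sense iron or carry the BMP signal in hepatocytes, Bmpr2 and Smad4 were called higher, as given above. Acvr2a, Acvr2b, Smad1, Smad5 and Neo1 were not called, nor were the genes named next. With strain family in the model, 8 of the 26 tested ligands, receptors and regulators were called higher and 1 lower. There 1503 of all 13085 genes were called higher and 1217 lower. Hemojuvelin (Hjv, annotated as Hfe2) differed by 0.05 (SE 0.12), transferrin receptor 2 (Tfr2) by -0.08 (SE 0.08), Hfe by 0.02 (SE 0.08) and Tmprss6, the protease that removes hemojuvelin, by -0.13 (SE 0.06, edgeR adjusted p 0.129). The type 1 receptors Bmpr1a and Acvr1 differed by 0.04 (SE 0.05) and 0.07 (SE 0.06).

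Target genes of the pathway gave 1 call of 11, a share near the 9.48% of all genes called higher. Hamp (chromosome 7, 30942368 to 30944032) ran from 367 CPM in SJL/J through a median of 776 to 1129 CPM in BXD8/TyJ among high strains, and from 240 CPM in DBA/2J through 812 to 1178 CPM in AXB19b/PgnJ among low strains. The groups covered nearly the same range, with a log2 difference of -0.03 (SE 0.13, edgeR adjusted p 0.921). Id1, a direct SMAD target, ran from 15.5 through 34.9 to 51.8 CPM against 7.17 through 26.9 to 58.4 CPM (0.25, SE 0.18, edgeR adjusted p 0.374). The inhibitory Smad7, Atoh8 and Smad9 differed by 0.20, 0.21 and 0.16, with edgeR adjusted p-values of 0.472, 0.403 and 0.373. Of 11 targets, the inhibitory Smad6 was the 1 called, at 0.39 (SE 0.13, edgeR adjusted p 0.0346), with 8.73 through 17.9 to 25.1 CPM in high and 5.70 through 13.1 to 24.9 CPM in low strains. Its call was lost in 9 of 27 alternatives (adjusted p up to 0.455), among them strain family in the model (0.0534) and without BALB/cByJ (0.0545). The list's median of 0.16 was above that of all genes, and 9 of 11 differences were positive. Hamp2, whose reads can be shared with Hamp, differed by -0.13 (SE 0.65).

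**Figure D3:**
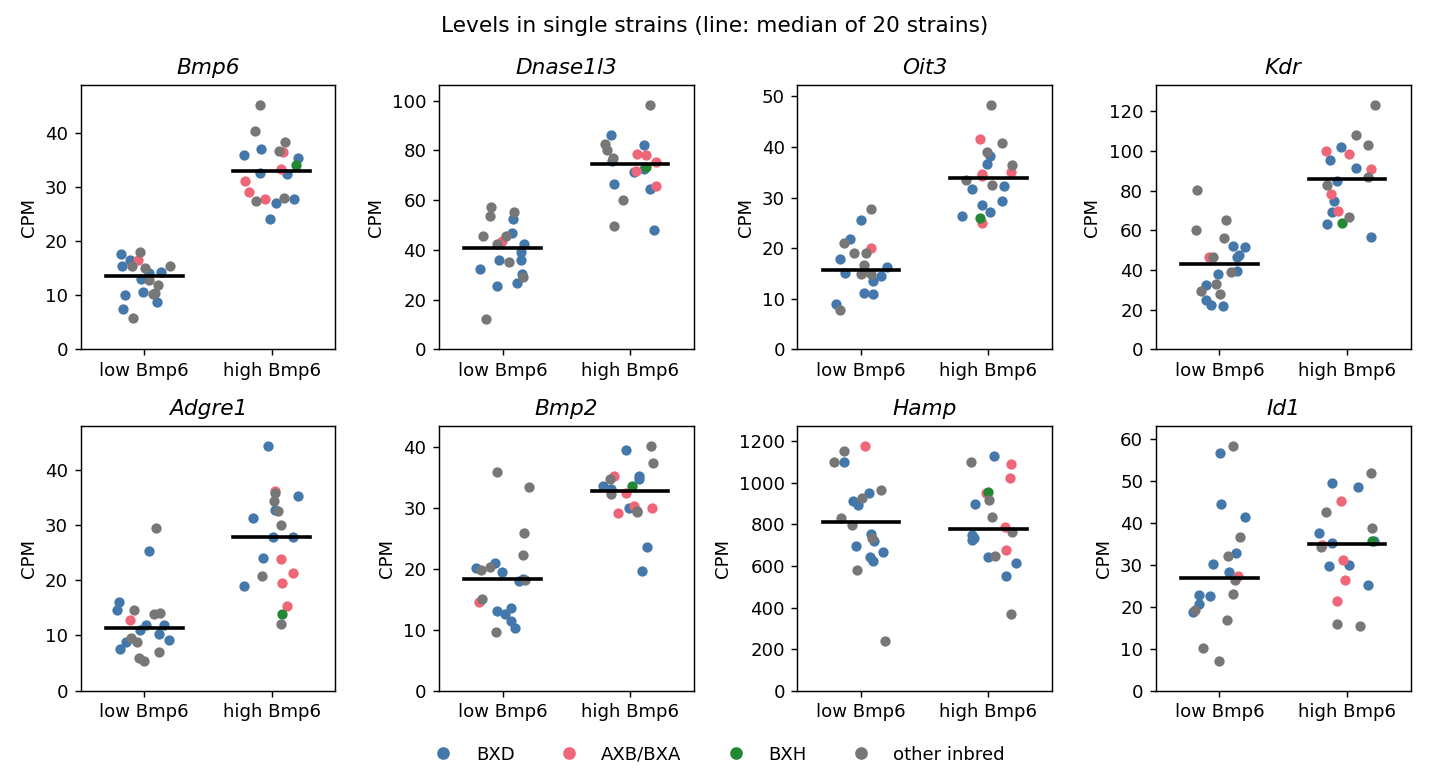
Level of 8 genes (panels; y axes in CPM, starting at 0) in each low and each high Bmp6 strain, coloured by family, with a bar at the median of 20 strains. Bmp6 is shown as the gene that chose the groups; Dnase1l3, Oit3, Kdr, Adgre1 and Bmp2 shift upward in the high group, whereas Hamp medians are 776 and 812 CPM.

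Of 29 genes for iron storage, transport and heme, 2 were called higher and 2 lower, shares near those of all genes (9.48% and 6.35%). Hmox1, which breaks down heme, ran from 31.7 through 54.96 to 169 CPM in high and from 12.8 through 32.7 to 62.7 CPM in low strains (1.01, SE 0.21, edgeR adjusted p 8.30e-04), with 8 high strains above every low strain and the maximum in BXD87/RwwJ. Slc40a1, which encodes ferroportin, ran from 260 through 454 to 791 CPM against 216 through 340 to 491 CPM (0.42, SE 0.10, edgeR adjusted p 0.00420). Both are abundant in Kupffer cells, whose markers were higher in the same strains, and their part in these differences was not tested. The mitochondrial iron importers Slc25a37 and Slc25a28 were lower by 0.32 and 0.34, and Slc25a37 lost its call in 20 of 27 alternatives (adjusted p up to 0.424). The ferritin subunits Fth1 and Ftl1 differed by 0.00 (SE 0.09) and -0.10 (SE 0.29), transferrin (Trf) by 0.23 (SE 0.17) and the transferrin receptor Tfrc by 0.27 (SE 0.30). Ftl1 was 32.8 CPM in SJL/J and 53.99 CPM in the next lowest high strain against a group median of 4578 CPM, and near-identical pseudogenes make its count uncertain. Among 23 targets of the oxidative stress factor NRF2, 1 was called higher, G6pdx, by 0.69, and 1 lower, Slc7a11, the cystine importer, by 0.44. Neither count is above the share of all genes called in that direction. Of 14 p53 and stress genes 1 was called, Gdf15, a stress hormone, higher by 1.11. Of 15 interferon-stimulated genes 2 were called, Ifit2 and Rsad2, higher by 0.88 and 0.97. Both counts are near the share of all genes called higher.

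Among called genes with at least 1 CPM on average, the 12 largest rises and 12 largest falls differed in kind. Some of the rises were broad: Mest, an imprinted hydrolase gene, Adam23, a membrane protein of the disintegrin family, and Akr1b8, an aldo-keto reductase. Mest ran from 4.96 through 7.69 to 17.3 CPM in high and 1.22 through 3.35 to 5.73 CPM in low strains (1.44, SE 0.19, edgeR adjusted p 1.06e-06). Adam23 ran from 55.5 through 92.7 to 129 CPM against 15.5 through 36.2 to 72.9 CPM (1.34, SE 0.15, edgeR adjusted p 3.70e-08). Akr1b8 ran from 14.6 through 21.8 to 44.2 CPM against 3.25 through 9.83 to 16.1 CPM (1.33, SE 0.17, edgeR adjusted p 4.13e-07). For each of the 3, 15 or 16 high strains lay above every low strain. Plxdc1, a membrane protein of tumour endothelium, was higher by 1.33 and Asb4 by 1.57.

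Other large rises rested on few strains. Thbs1, a matrix glycoprotein, was 149 CPM in BUB/BnJ and at most 21.98 CPM in any other high strain, and without BUB/BnJ its difference went from 1.78 to 0.82 with an adjusted p of 0.213. The platelet chemokine Pf4, 24.2 CPM in the same mouse and at most 3.68 CPM in other high strains, went from 1.35 to 0.51 (adjusted p 0.374 without BUB/BnJ). Prkar2b, a kinase subunit, went from 1.52 to 0.98 (adjusted p 0.112 without it). Gvin1, an interferon-inducible GTPase, was at 0 in 3 high and 9 low strains and had medians of 33.7 CPM in high and 0.087 CPM in low strains (2.24, SE 0.75, edgeR adjusted p 0.0372). Pakap, Stac2 and Nxpe4 rose by 1.94, 1.49 and 1.34, with medians of at most 2.03 CPM in either group.

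Several of the 12 largest falls rested on 1 low strain. Afp, the fetal serum protein, was 232 CPM in BALB/cJ and at most 8.12 CPM in any other low strain, and without BALB/cJ the fall of 2.70 became 0.42 (log2 difference -0.42, adjusted p 0.126). Akr1b7 reached 86.1 CPM in the same mouse, and without it the difference of -1.70 became 0.18 (adjusted p 0.770). Cyp3a16 was 56.9 CPM there and at most 5.68 CPM elsewhere among low strains. Dnah17, a dynein chain, was 155.7 CPM in BALB/cByJ and at most 1.47 CPM in other low strains, and went from -3.14 to -0.13 without that strain (adjusted p 0.646). Cyp46a1 and Asic5 peaked in CBA/J at 268 and 46.7 CPM, and without CBA/J they went from -1.47 to -0.33 and from -1.47 to -0.65 (adjusted p 0.599 and 0.0949). Rassf4 was near 380 CPM in 2 low strains (386 in DBA/2J and 383 in the next) and at most 51.8 CPM in high strains, and its sign turned under DESeq2 (0.35, adjusted p 0.484). The major urinary protein gene Mup17, which resembles its many paralogs so that reads may be split between them, was lower by 2.99, and Sycp1, Mc1r, Derl3 and Ankrd6 were lower by 2.02, 1.64, 1.32 and 1.22.

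Genes near Bmp6 on chromosome 13 were examined as a group. Of 71 genes tested within 10 Mb of its start, 8 were called higher and 9 lower, or 23.9%, against 15.8% of all genes. Among BXD strains 4 of the 71 were called higher and 0 lower, where 5.25% of all genes were called higher, and among other families 1 was called higher and 1 lower, where 2.05% of all were higher. The higher ones were Gfod1 (0.72), Nedd9 (0.66), Serpinb6a (0.53), Atxn1 (0.35), Rnf144b (0.30), Nup153 (0.17), Ripk1 (0.16) and Exoc2 (0.14). The lower ones were Tpmt (-0.57), which inactivates thiopurine drugs, Adtrp (-0.36), Fars2 (-0.27), Tmem14c (-0.22), Txndc5 (-0.21), Pak1ip1 (-0.20), Uqcrfs1 (-0.19), Fam8a1 (-0.15) and Dtnbp1 (-0.14). All but 4 of these 17 differences were smaller than 0.5 on the log2 scale. Calls were lost in 17 of 27 alternatives for Atxn1 and in 16 each for Dtnbp1 and Fam8a1. They were lost in 15 each for Exoc2 and Adtrp, 14 for Rnf144b, and 1 to 8 for the other genes. Dtnbp1 and Fam8a1 changed sign with log2(TPM + 1), to 0.01 and 0.05. No genotypes were analysed here.

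The endothelial pattern was present among BXD strains and among strains of other families. The latter were 6 high and 9 low other inbred strains, 5 high and 1 low AXB/BXA strains, and 1 high BXH strain. Because this set mixes families, its contrast does not show the pattern within a family. With family as a term in the model, 2720 of 13085 genes (20.8%) were called, 1503 higher and 1217 lower. In that fit 12 of 14 sinusoidal and 12 of 12 Kupffer markers were called higher. Among the 18 BXD strains of the groups, 5.25% of genes were called higher, and so were 11 of 14 sinusoidal and 9 of 12 Kupffer markers. Among the 22 strains of other families, 2.05% of genes were called higher, with 11 of 14 sinusoidal markers but 1 of 12 Kupffer markers, Adgre1. The list medians for Kupffer markers were 0.89 among BXD and 0.61 among the others. A test of the difference between BXD and other strains (an interaction term in edgeR) called 0 of 13085 genes, with 720 at an unadjusted p under 0.05. For BMP/SMAD targets, 0 of 11 were called in either subset. Hmox1 passed among other families (1.09, adjusted p 0.0460) and narrowly missed among BXD (0.97, adjusted p 0.0528), and Slc40a1 passed in neither (0.39 and 0.45, adjusted p 0.0931 and 0.114).

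Of the 10 genes whose levels followed Bmp6 most closely over all ranked strains, 5 are on the endothelial lists. By Spearman's rho on log2 CPM, given as a description, the 10 nearest were Dnase1l3 (0.79), Rasgrp3 (0.77), Oit3 (0.77), Akr1b8 (0.76), Cdh5 (0.76), Kdr (0.75), Hpse (0.75), Fyn (0.73), Rgl1 (0.73) and Stab1 (0.73). Among them 4 are on the sinusoidal list and Cdh5 on the general endothelial list. Over the 73 middle strains, which also entered the choice of these 10 genes, rho ran from 0.54 for Cdh5 to 0.65 for Dnase1l3. It was 0.62 for Oit3, 0.62 for Akr1b8, 0.59 for Kdr and 0.57 for Stab1. Among BMP/SMAD targets over all ranked strains, rho was 0.40 for Smad6, 0.31 for Id4, 0.28 for Id1, 0.24 for Smad7 and 0.20 for Atoh8. It was 0.19 for Smad9, 0.19 for Id3, 0.125 for Bambi, 0.08 for Id2, -0.00182 for Hamp and -0.03 for Hamp2. The median of all genes was -0.03. All points share the same libraries and scaling.

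The C57BL/6J diet study, whose mice are not in the ranking, shows the same lists when iron itself was varied. On 2% iron against 50 ppm, with 3 mice each, Bmp6 rose from 5.81 ± 1.78 to 28.9 ± 3.38 CPM (SD, n = 3; log2 change 2.31, edgeR adjusted p 1.27e-04). In that contrast 8.51% of genes were called higher and 7.17% lower. Of 11 BMP/SMAD targets 9 were called higher, with a median of 1.62, compared with 1 of 11 and 0.16 between strains. Hamp reached 728 ± 42.7 CPM on the high diet (SD, n = 3), compared with 276 ± 95.4 CPM on the low one. Of 14 sinusoidal markers 3 were called higher (Stab2, Mrc1 and Plxnc1), with a median of 0.34, compared with 13 of 14 and 0.85 between strains. Dnase1l3 was 53.8 ± 3.02 and 40.8 ± 3.69 CPM (SD, n = 3) there. Of 12 Kupffer markers all 12 were called higher, with a median of 1.63. The differences between the contrasts were not tested, and they differ in the number of mice.

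**Figure D4:**
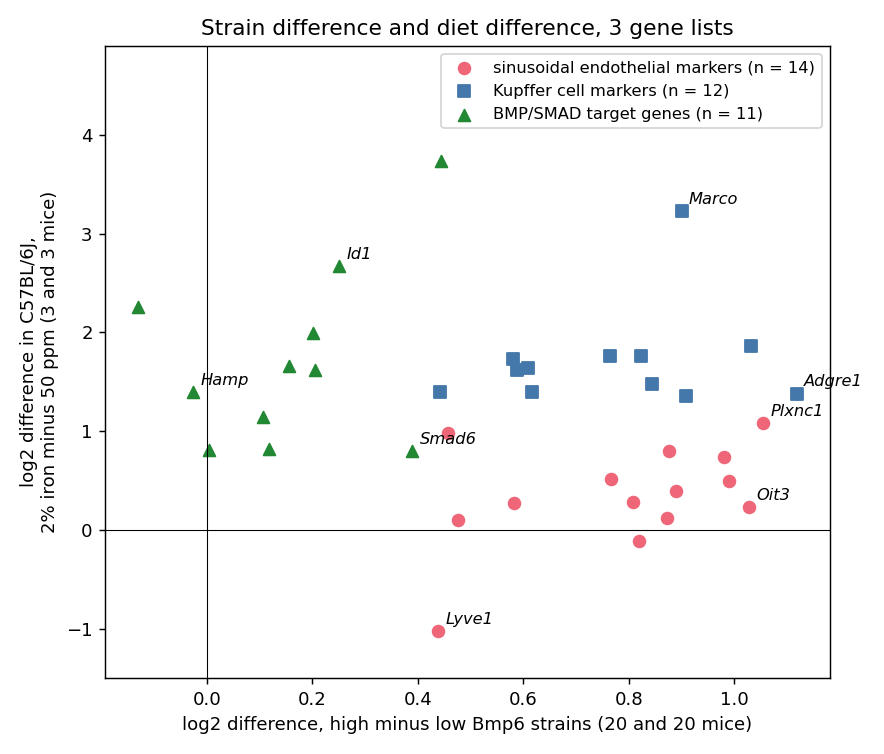
Log2 difference between high and low Bmp6 strains (x axis) against the log2 difference between 2% iron and 50 ppm in C57BL/6J (y axis) for genes of 3 lists, 1 point per gene. BMP/SMAD targets lie between -0.13 and 0.44 on the x axis and mostly high on the y axis, sinusoidal markers mostly between 0.4 and 1.1 on the x axis with smaller diet differences, and Kupffer markers are positive on both.

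Over all 12825 genes tested in both, 496 of the 1237 genes higher in high Bmp6 strains (40.1%) were also higher on 2% iron, where 8.79% of all these genes were, and they made up 44.01% of the 1127 genes higher on the diet. The share was 22.3% without 50 ppm replicate 1 and 22.2% on either TPM scale. Without that replicate the diet contrast called 1002 genes in either direction instead of 2126. The 8.79% is given for the main fits only. The opposite direction held 7 genes. Of the 817 genes lower in high Bmp6 strains, 164 (20.1%) were also lower on 2% iron, against 7.20% of all, and these were 17.75% of the 924 genes lower on the diet, with 6 in the opposite direction. No library is shared between these comparisons. Across genes, which are not independent replicates, the log2 differences had a Pearson r of 0.50 and a Spearman rho of 0.46. Mest, Adam23 and Akr1b8 were among the genes higher in both, with diet changes of 1.77, 2.06 and 3.35.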

How the data were processed

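Liver poly(A) RNA of male mice was sequenced with a stranded kit, per the labels' protocols, and the submitters' processing notes name kallisto 0.46 and the build mm10. The authors deposited estimated counts per gene, not normalized (expected counts), which were rounded to whole numbers here because the design had assumed counts, and TPM for the same genes. Columns were mapped to strains by the labels. GENCODE M21 (GRCm38) gave symbols for 35691 of 35711 identifiers in the panel table and 34924 of 35274 in the diet table, and promoter windows came from RefSeq GRCm38.p6. TPM columns of the panel summed to between 994114 and 997301.

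Strains were ranked on deposited TPM of Bmp6, with 20 per group. Genes were tested with edgeR 4.0.16 (R 4.3.3; filterByExpr, TMM factors, glmQLFit and glmQLFTest, two-sided, Benjamini-Hochberg over all genes), on the 40 libraries with no covariate, and on the 15 diet libraries together. Levels are CPM scaled with TMM factors, and log2 CPM used a prior count of 2. Bmp6 is left out of every count of calls. The edgeR test met a set minimum, low enough to allow most to be missed, for recovering 2-fold changes in simulated counts. Those counts were drawn independently for each library, with no related strains and no outlier libraries, so the check does not cover these features. Totals in the panel were 9.41 to 20.6 M counts, of reads without molecular identifiers. Precision is limited by more than counting error. The spread among libraries beyond it (common biological coefficient of variation, main fit) was 0.337.

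Alternatives were RLE factors, DESeq2 1.42.0, limma 3.58.1 on log2(TPM + 1) and log2(TPM + 0.1), other filters, strain family as a covariate or subset, other rankings and group sizes, a slope over all ranked strains, and libraries left out. Named genes were the listed genes, the 12 largest rises and falls among called genes of at least 1 CPM (predicted genes and pseudogenes passed over), called genes within 10 Mb of Bmp6, and the 10 nearest by rho. Of 27 lists with 404 genes, 367 genes were tested. The members, the lists and the rules were chosen with earlier results of these data known. Lists that gave few calls are shown by their counts.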

Additional observations from a re-analysis of the deposited data

How the results depend on the processing

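The strain comparison was recomputed under 27 alternatives, 15 planned and the rest chosen after seeing the data. Against 2071 called genes, 1240 higher and 831 lower, called genes numbered 3177 on log2(TPM + 1) (3131 and 46) and 3240 on log2(TPM + 0.1) (3196 and 44), 843 among BXD strains (699 and 144), 356 among other families (267 and 89) and 3441 for the slope over all ranked strains with family. The smaller samples of the subsets hold 18 and 22 libraries. The cause of the other shifts was not tested. Higher calls moved to 745 with centred TPM. Lower calls moved to 463 with 10 against 10 strains, 1319 for the slope, 1633 for the slope with family, 425 without the 3 high strains richest in neutrophil RNA, 427 without 3 near relatives and 551 on ranking without Klf10. The diet count of 2126 ranged from 1002 to 1639 with 1 mouse left out (lowest without 50 ppm replicate 1, 1266 without 2% iron replicate 3 and 1369 without 2% iron replicate 1), the remaining pair then sharing the spread of all groups. The share of genes higher in high strains that were also higher on 2% iron, 40.1%, was 22.2% with either TPM scale and ranged from 22.3% to 36.3% with 1 diet mouse left out. The sinusoidal count stayed between 11 and 14 under all 27 alternatives and the Kupffer count between 9 and 12 under all but the subset of other families (1). Of the genes named, 6 turned sign somewhere: Cyp3a16 among BXD (0.0682), Rassf4 with DESeq2 (0.35) and log2(TPM + 0.1) (0.0428), Akr1b7 with DESeq2 (0.19), log2(TPM + 0.1) (0.0609), among BXD (0.35) and without BALB/cJ (0.18), Cyp46a1 on ranking by CPM (1.03) and with 30 against 30 strains (0.0430), Dtnbp1 with log2(TPM + 1) (0.0127), log2(TPM + 0.1) (0.0134) and ranking by CPM (0.0088), and Fam8a1 on both TPM scales (0.0460 and 0.0479). Of 99 called genes named, 25 kept direction and call under every alternative that tested them, and of 25 not called, 14 were never called. No paired analysis was possible because each ranked strain was represented by 1 mouse, in 1 group at most.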
